A study of Homo sapiens with 6 samples.

Results

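The 32 genes described here are known targets of the transcriptional response to low oxygen. They were taken by name from a list of hypoxia response genes, out of 18404 genes measured on expression arrays of a prostate epithelial cell line. All 32 had a probe set annotated with that gene alone, and no filter on low signal was applied. Where a gene had more than 1 such probe set, the one reported was chosen by the highest mean signal over the 6 arrays, and this touched AK4 alone. The study compared 2 lines derived from PrEC cells, which are normal prostate epithelial cells that were immortalized. The shPKCi line, with 3 samples, carries a short hairpin against PKCλ/ι, the atypical protein kinase C encoded by PRKCI. The shNT line, also with 3 samples, carries the hairpin labelled shNT and is its reference. Both lines were grown in the same prostate epithelial medium in air with added CO2 and harvested at 48 hours from plating without a further treatment. The labels name no exposure to low oxygen, and whether a line is 1 clone or a pool is not given in the sources used here.

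In cells with enough oxygen, prolyl hydroxylases modify the alpha subunits of hypoxia-inducible factor (HIF), and the VHL ubiquitin ligase then marks them for degradation. When oxygen is short, the alpha subunits persist, pair with ARNT and bind short DNA elements near their target genes. The targets change how a cell handles glucose, glycogen and lipid, remove mitochondria and slow growth signalling. Many of the same genes also answer to other inputs, among them the stress factor ATF4, glucocorticoids and FOXO factors.

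The targeted transcript was lower in each shPKCi array: PRKCI read 800.3, 810.2 and 753.8 in the shPKCi arrays, against 1634.8, 1428.4 and 1842.7 in the shNT arrays, a change of -1.05 (SE 0.11, adjusted p = 0.000279) in log2 units. All fold changes here are shPKCi minus shNT on the log2 scale, with p-values from limma adjusted over all 18404 genes, and values named intensities are on the linear scale. Median intensities over all probe sets ran from 44.9 to 45.7 in the shPKCi arrays and from 45.1 to 48.6 in the shNT arrays. The array of shNT replicate 2 stood apart from the rest, with correlations of 0.974 to 0.989 with the other arrays, where the highest correlation of each other array was 0.995 or 0.996. As a check of the labelled cell type, the signal of 10 measured basal epithelial markers ran from percentile 34.0 (KRT15) to percentile 99.6 (KRT5) of all genes. Luminal markers were not all dim: 10 measured ones ran from percentile 4.3 (MSMB) to 97.8 (CD24), with the keratin genes KRT8, KRT18 and KRT19 at 95.9, 96.3 and 95.8. Of 12 endothelial and blood markers, the lowest was PTPRC at percentile 1.2 and the highest CD68 at 78.9. These markers are named by their place in the range, after their values were seen.

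Of the 32 hypoxia response genes, 18 fell in shPKCi and none rose. Over all genes, 8.95% were lower and 9.55% higher at the same threshold, an adjusted p under 0.05. With each array centred on its median, 17 of the 32 fell, and over all genes 1321 were lower and 2170 higher, against 1648 lower and 1758 higher without centring. Without an adjustment, 23 of the 32 had a limma p under 0.05 downward and 0 upward, against 2709 and 2764 of all 18404 genes. The median log2 fold change was -0.77 over the 32 genes and -0.02 over all genes. A decrease of at least 2-fold was seen in 13 of the 32, against 1.29% of all genes. All 3 shPKCi arrays lay below all 3 shNT arrays in 23 of the 32 genes, where 17.8% of all genes did so. The genes were proposed with earlier results of these arrays known, so these counts describe the group and are not independent evidence of its direction. Leaving out 1 array at a time left between 17 and 20 of the 32 lower and 0 higher; without shNT replicate 2 the number was 20.

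**Figure D1:**
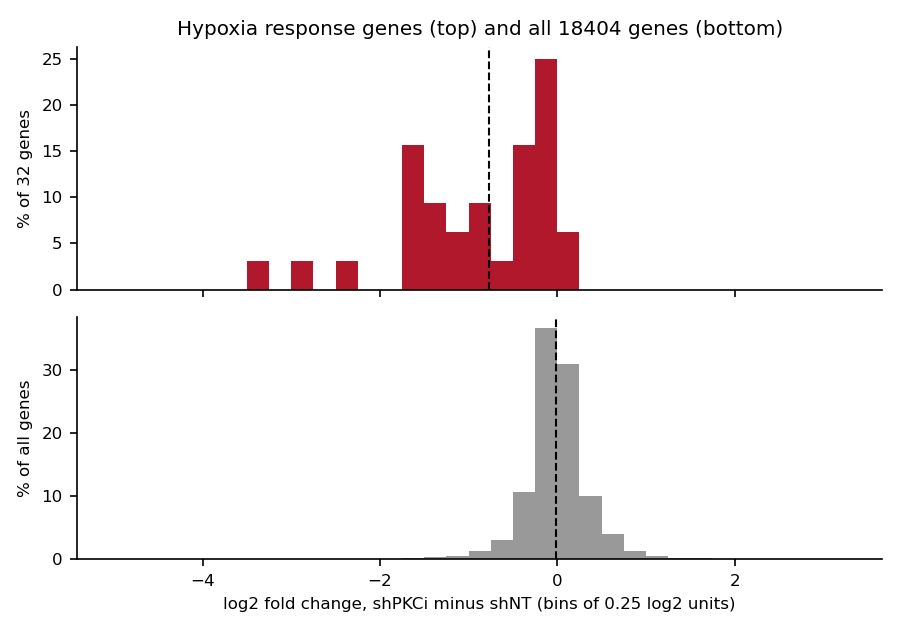
Share of genes in each bin of log2 fold change (x axis, log2 units, bins of 0.25) for the 32 hypoxia response genes (top) and all 18404 genes (bottom); dashed lines mark the medians, -0.77 and -0.02. The hypoxia response genes spread from -3.27 to 0.08 and 30 of 32 lie below 0.

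The genes did not move as a block. The sizes ran from -3.27 for NDRG1 to 0.08 for MAFF, and 14 genes did not pass the test. Among those 14 the fold changes lay between -0.41 and 0.08, with a median of -0.22, while the 18 that passed had a median of -1.38. The 13 genes with the largest decreases span every functional group described below.

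**Figure D2:**
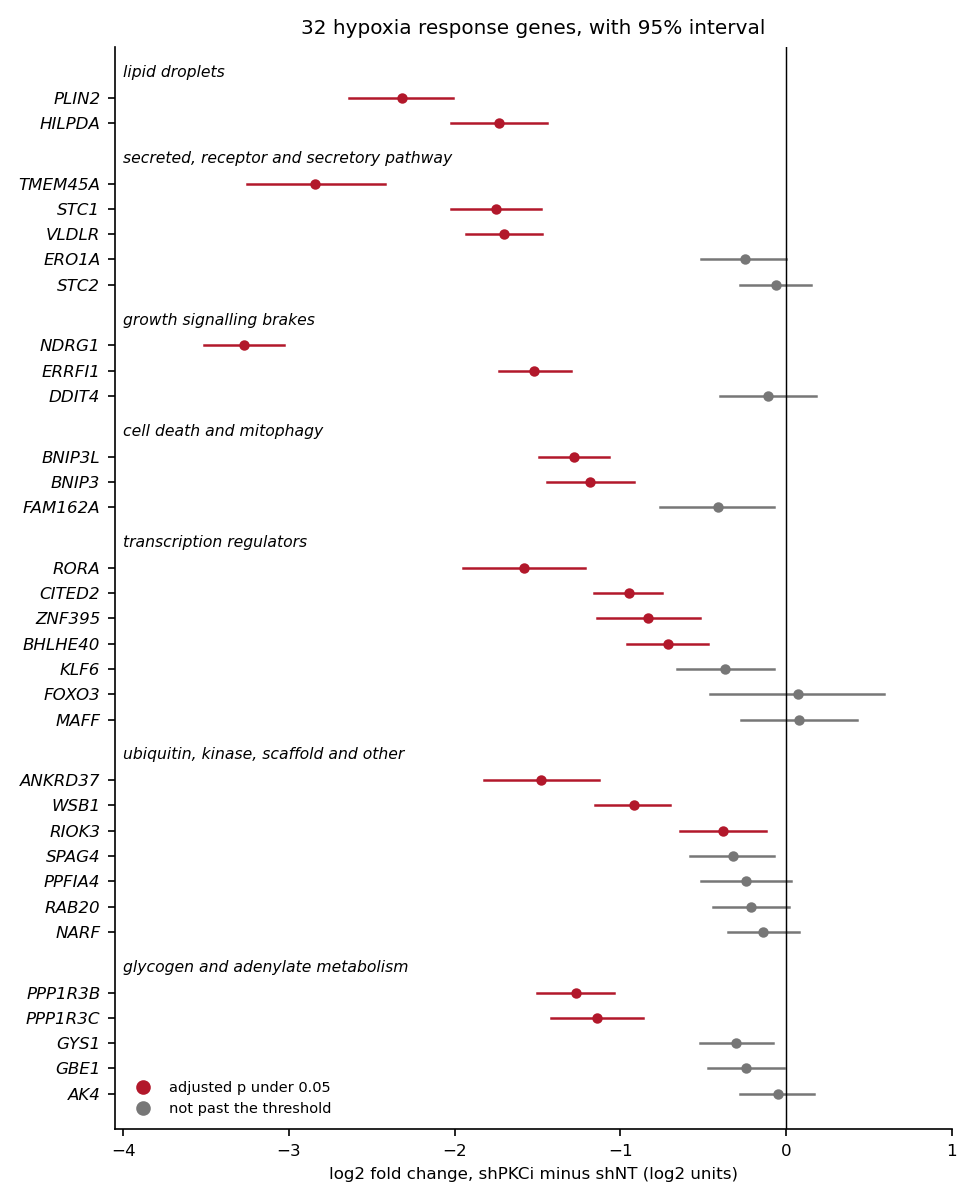
Log2 fold change, shPKCi minus shNT (x axis, log2 units), of each of the 32 genes, grouped by role; points are estimates from 3 arrays a line and bars are 95% intervals. Red marks the 18 genes past an adjusted p of 0.05, from -3.27 for NDRG1 to -0.38 for RIOK3, and grey the other 14.

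Among genes that restrain growth signalling, NDRG1 and ERRFI1 fell and DDIT4 did not pass. NDRG1, a stress-induced protein linked to growth arrest, had intensities of 260.4, 249.7 and 304.7 in the shPKCi arrays, against 2594.5, 2700.0 and 2534.4 in the shNT arrays. It averaged 271.6 ± 29.2 in shPKCi and 2609.6 ± 83.8 in shNT (mean intensity, SD, n = 3 each). The decrease was 9.64-fold, or -3.27 (SE 0.11, adjusted p = 6.44e-07) in log2 units. Each shPKCi array was far below every shNT array, and only 2 of the 18404 genes had a lower fold change. ERRFI1 encodes a feedback inhibitor of the EGF receptor kinase. Its intensities were 872.2, 872.6 and 844.1 in the shPKCi arrays, against 2447.4, 2314.5 and 2663.8 in the shNT arrays, with -1.52 (SE 0.10, adjusted p = 1.47e-05) as log2 change. The shPKCi arrays were close to each other, and the lines did not overlap. DDIT4, an inhibitor of mTORC1 signalling that ATF4 and glucocorticoids also induce, read 175.8, 153.7 and 171.6 in the shPKCi arrays, against 198.3, 148.6 and 197.0 in the shNT arrays. The lines overlapped, with a log2 change of -0.11 (SE 0.13, adjusted p = 0.656) and a 95% interval of -0.40 to 0.18. That interval still allows a decrease of the size of its lower bound.

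The mitophagy receptor genes BNIP3 and BNIP3L fell by similar amounts. BNIP3, whose protein tethers mitochondria to the autophagy machinery, read 1112.9, 1122.2 and 1107.7 in the shPKCi arrays, against 2698.6, 2149.8 and 2792.8 in the shNT arrays. Its log2 fold change was -1.18 (SE 0.12, adjusted p = 0.000152), and the shNT arrays spread more widely than the shPKCi arrays, with SDs of 347.3 in shNT and 7.3 in shPKCi. BNIP3L, its relative with the same role, read 381.4, 396.4 and 407.7 in the shPKCi arrays, against 993.1, 898.4 and 988.3 in the shNT arrays, a change of -1.28 (SE 0.09, adjusted p = 3e-05) in log2 units. Neither gene overlapped between the lines. FAM162A, a mitochondrial protein gene linked to hypoxic cell death, read 291.5, 248.7 and 249.1 in the shPKCi arrays, against 408.4, 272.1 and 384.9 in the shNT arrays. Its shNT replicate 2 fell within the shPKCi range, and its log2 fold change of -0.41 (SE 0.16) did not pass (adjusted p = 0.1). Without shNT replicate 2 that value was -0.60 and passed (adjusted p = 0.00445). RefSeq lists pseudogenes of BNIP3, and whether their transcripts bind the BNIP3 probes was not analysed here.

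Both genes of lipid droplets fell. PLIN2, which encodes the coat protein perilipin of lipid droplets, had intensities of 148.2, 164.5 and 161.1 in the shPKCi arrays, against 927.9, 633.1 and 836.3 in the shNT arrays. That is 157.9 ± 8.6 in shPKCi and 799.1 ± 150.9 in shNT (mean intensity, SD, n = 3 each), 5.00-fold lower, at -2.32 (SE 0.14, adjusted p = 1.13e-05) as log2 change. HILPDA encodes a small droplet protein that restrains the breakdown of stored fat. It read 112.3, 99.6 and 131.3 in the shPKCi arrays, against 424.8, 338.5 and 372.7 in the shNT arrays, and its log2 fold change was -1.73 (SE 0.13, adjusted p = 3.29e-05). In both genes every shPKCi array was below every shNT array, and the lowest shNT array was replicate 2.

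Among the glycogen genes, the 2 for glycogen-targeting subunits of protein phosphatase 1, which switch on glycogen synthase, fell. The genes of the enzymes that build the polymer did not pass. PPP1R3B read 64.1, 73.8 and 66.2 in the shPKCi arrays, against 164.8, 153.2 and 173.3 in the shNT arrays, with a log2 change of -1.27 (SE 0.10, adjusted p = 4.55e-05). PPP1R3C read 57.0, 48.5 and 64.4 in the shPKCi arrays, against 135.7, 114.9 and 122.9 in the shNT arrays, with a change of -1.14 (SE 0.12, adjusted p = 0.000291) in log2 units. For both subunits the highest shPKCi array was well below the lowest shNT array. GYS1, the glycogen synthase gene, read 187.9, 178.4 and 192.0 in the shPKCi arrays, against 211.6, 245.9 and 229.0 in the shNT arrays. Its lines did not overlap either, and its log2 fold change of -0.30 (SE 0.10) missed the threshold (adjusted p = 0.0667). GBE1, the branching enzyme gene, read 896.5, 921.2 and 871.2 in the shPKCi arrays, against 1155.4, 962.3 and 1066.5 in the shNT arrays, again with no overlap. Its log2 fold change was -0.24 (SE 0.10, adjusted p = 0.145), and without shNT replicate 2 it was -0.31 and passed (adjusted p = 0.0362). AK4, a mitochondrial adenylate kinase gene, overlapped between the lines at 258.8, 290.0 and 302.9 in the shPKCi arrays, against 280.9, 293.3 and 307.2 in the shNT arrays. The AK4 log2 fold change was -0.05 (SE 0.10, adjusted p = 0.798), with a 95% interval of -0.28 to 0.17. A second AK4 probe set gave -0.18 (SE 0.11, adjusted p = 0.43 over all probe sets), and pseudogenes of AK4 are listed in RefSeq.

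Of the secreted and membrane proteins, STC1, VLDLR and TMEM45A fell, and STC2 and ERO1A did not pass. TMEM45A, a membrane protein gene of keratinizing epithelium, had the second largest decrease of the 32. Its intensities were 76.2, 86.9 and 73.3 in the shPKCi arrays, against 714.3, 407.3 and 609.8 in the shNT arrays, and its log2 fold change was -2.84 (SE 0.19, adjusted p = 1.79e-05). The shNT arrays ranged widely, but the lowest of them, replicate 2, was still far above the highest shPKCi array. STC1 and STC2 encode the secreted glycoproteins called stanniocalcins. STC1 read 59.1, 67.4 and 58.4 in the shPKCi arrays, against 207.4, 181.8 and 234.2 in the shNT arrays, -1.75 (SE 0.12, adjusted p = 2.08e-05) as log2 change. STC2 read 52.8, 59.3 and 53.7 in the shPKCi arrays, against 57.4, 55.4 and 60.4 in the shNT arrays, a log2 change of -0.06 (SE 0.10, adjusted p = 0.731). The STC2 arrays of the lines overlapped and lay at percentile 43.7 of signal. VLDLR, a lipoprotein receptor that takes up lipid, fell by 1.70 log2 units (SE 0.10, adjusted p = 1.19e-05), with intensities of 148.0, 154.9 and 180.4 in the shPKCi arrays, against 527.7, 510.1 and 526.8 in the shNT arrays. The receptor's shNT arrays agreed closely, and no array crossed between lines. ERO1A encodes the oxidase that drives disulfide formation in the endoplasmic reticulum. It read 1933.4, 1733.3 and 1560.5 in the shPKCi arrays, against 2069.2, 1893.9 and 2261.2 in the shNT arrays, and overlapped, with a change of -0.25 (SE 0.12, adjusted p = 0.176) in log2 units.

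Of the 7 transcription regulators, 4 fell. RORA, a nuclear receptor gene of the circadian clock, read 22.1, 25.1 and 30.5 in the shPKCi arrays, against 86.7, 61.0 and 85.6 in the shNT arrays. Its log2 fold change was -1.58 (SE 0.16, adjusted p = 0.000218), at percentile 37.3 of signal, and the lines did not overlap. CITED2 encodes a protein that competes with HIF for the coactivators CBP and p300. It read 181.0, 175.8 and 177.0 in the shPKCi arrays, against 323.9, 356.9 and 354.2 in the shNT arrays, with -0.95 (SE 0.09, adjusted p = 0.000143) as log2 change. The 3 shPKCi values of CITED2 were nearly identical and below all shNT values. BHLHE40, a transcriptional repressor gene that also feeds into the clock, read 1184.0, 1302.5 and 1240.9 in the shPKCi arrays, against 2132.0, 1789.0 and 2217.2 in the shNT arrays, a log2 change of -0.71 (SE 0.11, adjusted p = 0.00186). ZNF395, a zinc finger protein gene, read 93.3, 98.1 and 101.0 in the shPKCi arrays, against 138.6, 196.3 and 191.3 in the shNT arrays, with a change of -0.83 (SE 0.14, adjusted p = 0.00275) in log2 units. Its lowest shNT array was replicate 1, and it too was above every shPKCi array. KLF6, another zinc finger gene, did not overlap between lines at 150.1, 140.4 and 151.0 in the shPKCi arrays, against 175.4, 232.4 and 167.5 in the shNT arrays, but its log2 fold change of -0.37 (SE 0.13) did not pass (adjusted p = 0.0867).

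MAFF and FOXO3 had the only fold changes above 0 among the 32 genes, and neither passed. MAFF, a small Maf factor gene, read 46.5, 50.8 and 67.9 in the shPKCi arrays, against 45, 59.6 and 50.6 in the shNT arrays, with overlapping lines and 0.08 (SE 0.16, adjusted p = 0.803) as log2 change. The FOXO3 probe set, for a forkhead factor that hypoxia and growth factor loss activate, read 40.9, 48.1 and 54.6 in the shPKCi arrays, against 37.7, 69.8 and 35.7 in the shNT arrays. Its shNT replicate 2 was the highest of the 6 arrays, its shNT replicate 3 the lowest, and its log2 fold change was 0.07 (SE 0.23, adjusted p = 0.897), so that the 95% interval of -0.46 to 0.59 is the widest of the group. A further probe set, annotated to both FOXO3 and its near copy FOXO3B, lay outside the selection rule. It read 757.8, 842.9 and 785.9 in the shPKCi arrays, against 1010.9, 1183.4 and 1096.6 in the shNT arrays. That probe set did not overlap between lines and was lower, at -0.46 (SE 0.10, adjusted p = 0.0416 over all probe sets). Which of the 2 genes gave that signal cannot be told from the array.

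The remaining genes have diverse roles, and 3 of 7 fell. ANKRD37, an ankyrin repeat protein gene, read 139.1, 110.6 and 149.5 in the shPKCi arrays, against 444.2, 356.3 and 312.8 in the shNT arrays, a log2 change of -1.48 (SE 0.15, adjusted p = 0.00023). WSB1 encodes a substrate receptor of a ubiquitin ligase and read 425.2, 437.5 and 403.1 in the shPKCi arrays, against 737.1, 845.6 and 823.1 in the shNT arrays. WSB1 had a change of -0.92 (SE 0.10, adjusted p = 0.000252) in log2 units, and for both genes all shPKCi arrays were below all shNT arrays. RIOK3, an atypical kinase gene, was just inside the threshold at -0.38 (SE 0.12, adjusted p = 0.0499) as log2 change, and GYS1 was the nearest gene outside it. RIOK3 read 586.8, 575.6 and 500.4 in the shPKCi arrays, against 737.0, 635.2 and 795.5 in the shNT arrays. It stayed past the threshold without shNT replicate 2 (adjusted p = 0.0127) but not without any other single array: adjusted p was 0.128 without shNT replicate 1, 0.156 without shNT replicate 3, 0.0903 without shPKCi replicate 1, 0.109 without shPKCi replicate 2 and 0.173 without shPKCi replicate 3. SPAG4, a nuclear envelope protein gene, did not overlap between lines at 39.0, 33.4 and 32 in the shPKCi arrays, against 48.0, 41.9 and 40.8 in the shNT arrays. Its log2 change, -0.32 (SE 0.11, adjusted p = 0.0819), did not pass. NARF, which encodes a protein that binds prelamin A, likewise did not overlap, at 193.1, 187.5 and 178.8 in the shPKCi arrays, against 220.1, 196.4 and 200.1 in the shNT arrays, and had a log2 change of -0.14 (SE 0.10, adjusted p = 0.39). The small GTPase gene RAB20 had -0.21 (SE 0.10, adjusted p = 0.212) and the scaffold gene PPFIA4 -0.24 (SE 0.12, adjusted p = 0.226). Their lines overlapped, and PPFIA4 lay at percentile 24.1 of signal, a rank over all genes.

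**Figure D3:**
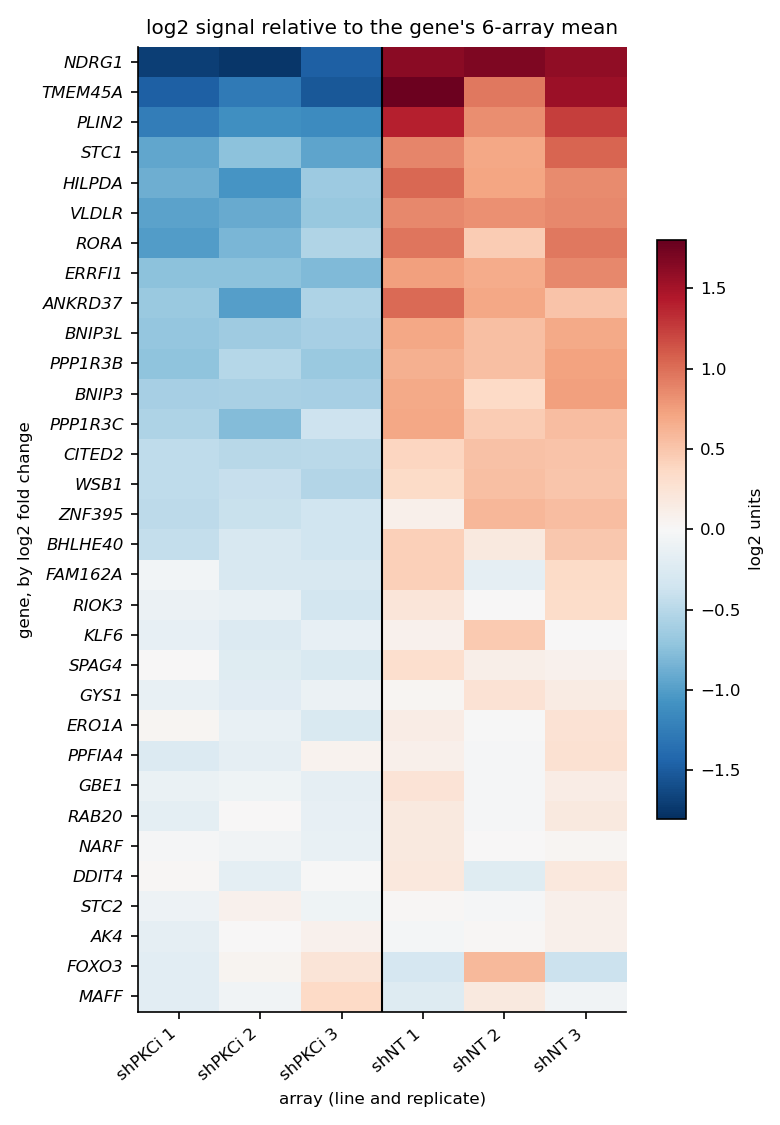
Log2 signal of each gene relative to its own mean over the 6 arrays (colour, log2 units), with genes in rows ordered by log2 fold change and arrays in columns. The upper 17 rows, NDRG1 to BHLHE40, are below their mean in all 3 shPKCi arrays and above it in all 3 shNT arrays. Most lower rows are paler. Some of them, among them RIOK3 and GYS1, show the same pattern with smaller deviations, and FOXO3 is well above its mean in shNT replicate 2.

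Array by array, the mean of the 32 genes relative to each gene's 6-array mean was -0.49, -0.47 and -0.42 log2 units in shPKCi replicates 1 to 3, and 0.49, 0.39 and 0.50 in shNT replicates 1 to 3. Each shPKCi array had a mean below 0 and each shNT array a mean above it, and the shNT value nearest 0 was that of replicate 2. In that array 21 of the 32 genes had the lowest value of the 3 shNT arrays, or 65.6%, where 36.7% of all genes did. The log2 signal of all genes was also less spread in that array, with an interquartile range of 2.81 against 2.98 to 3.01 in the others. Of the 32 genes, 26 lay above the median signal, and the part of the narrower range in this count was not tested. Over the 18 genes that passed, the means relative to each gene's 6-array mean were -0.78, -0.76 and -0.70 in shPKCi and 0.80, 0.63 and 0.81 in shNT. Over the other 14 they were -0.11, -0.11 and -0.06 in shPKCi and 0.09, 0.08 and 0.10 in shNT. The 32 genes were proposed with earlier results known, and the split rests on calls from these same arrays. The means are therefore a description and not separate evidence. The median SD of a gene between arrays of 1 line was 0.110 in shPKCi and 0.141 in shNT for the 32 genes, close to 0.100 and 0.144 for all genes.

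The promoters of some of these genes show the letters that HIF is known to contact, and a set of them is printed to show where these lie in genes that fell strongly and in genes that did not pass. The core of a hypoxia response element is ACGTG or GCGTG, and both were searched on both strands, so that a palindrome CACGTG counts as 2 overlapping matches. RefSeq promoter windows of 300 bases on GRCh38.p14, from 250 bases before to 50 after the transcription start, were matched for 24 of the 32 genes, with the window furthest 5′ used where a gene had several. NDRG1, BNIP3L, STC1, ZNF395, HILPDA, SPAG4, PPP1R3B and RAB20 were not matched. PLIN2, VLDLR, ANKRD37 and BNIP3 are the 4 matched genes with the largest fold changes among those that hold a match. AK4 and STC2 are the 2 matched genes with the smallest fold changes, picked whether or not they hold a match. Each window runs 5′ to 3′ on the strand of its gene, with matches in capitals:
PLIN2, chr9:19127443-19127742, - strand: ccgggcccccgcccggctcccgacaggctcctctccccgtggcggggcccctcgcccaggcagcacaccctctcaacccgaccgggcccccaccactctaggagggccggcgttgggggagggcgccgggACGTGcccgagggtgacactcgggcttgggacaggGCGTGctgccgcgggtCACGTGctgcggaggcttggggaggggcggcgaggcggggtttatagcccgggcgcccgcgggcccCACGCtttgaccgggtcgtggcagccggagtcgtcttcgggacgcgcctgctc
VLDLR, chr9:2621537-2621836, + strand: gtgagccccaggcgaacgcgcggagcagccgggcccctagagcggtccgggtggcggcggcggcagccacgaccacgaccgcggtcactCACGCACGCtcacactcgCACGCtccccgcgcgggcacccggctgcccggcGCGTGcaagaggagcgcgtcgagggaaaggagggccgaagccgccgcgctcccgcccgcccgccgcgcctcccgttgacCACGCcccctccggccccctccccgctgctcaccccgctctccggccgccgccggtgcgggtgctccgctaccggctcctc
ANKRD37, chr4:185396591-185396890, + strand: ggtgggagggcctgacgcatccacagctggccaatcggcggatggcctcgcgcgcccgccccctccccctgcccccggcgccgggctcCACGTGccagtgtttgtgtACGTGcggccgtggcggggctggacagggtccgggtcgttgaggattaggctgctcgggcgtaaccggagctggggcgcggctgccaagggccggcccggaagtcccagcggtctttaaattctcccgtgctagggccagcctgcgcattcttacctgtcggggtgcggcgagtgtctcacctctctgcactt
BNIP3, chr10:131981874-131982173, - strand: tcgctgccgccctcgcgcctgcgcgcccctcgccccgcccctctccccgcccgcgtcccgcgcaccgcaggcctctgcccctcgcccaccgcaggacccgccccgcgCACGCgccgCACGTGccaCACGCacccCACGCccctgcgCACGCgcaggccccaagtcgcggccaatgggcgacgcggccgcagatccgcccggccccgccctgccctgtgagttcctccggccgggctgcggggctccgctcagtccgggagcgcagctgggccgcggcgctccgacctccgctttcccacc
AK4, chr1:65147302-65147601, + strand: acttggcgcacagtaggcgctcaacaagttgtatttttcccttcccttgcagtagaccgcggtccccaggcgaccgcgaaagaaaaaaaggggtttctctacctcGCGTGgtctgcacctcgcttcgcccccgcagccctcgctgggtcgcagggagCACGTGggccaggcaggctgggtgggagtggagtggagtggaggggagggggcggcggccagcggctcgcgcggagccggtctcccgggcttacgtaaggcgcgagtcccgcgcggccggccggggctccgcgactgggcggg
STC2, chr5:173328365-173328664, - strand: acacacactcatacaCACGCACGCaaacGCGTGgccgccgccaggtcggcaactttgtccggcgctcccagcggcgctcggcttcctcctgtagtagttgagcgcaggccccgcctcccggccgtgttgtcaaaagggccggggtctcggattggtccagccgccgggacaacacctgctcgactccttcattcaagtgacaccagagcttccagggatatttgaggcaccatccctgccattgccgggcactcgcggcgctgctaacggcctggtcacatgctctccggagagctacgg

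PLIN2 held 5 matches, 3 of them to ACGTG, between 120 and 3 bases before the start. BNIP3 held 6 within a short stretch, the first 143 and the last 104 bases before the start, with 1 palindrome. ANKRD37 held 3, all to ACGTG, and VLDLR held 5, all to GCGTG. AK4, which did not pass, held 3 matches with 1 palindrome, and STC2 held 3, all to GCGTG and all over 200 bases before the start. PLIN2, VLDLR, ANKRD37 and BNIP3 were chosen among genes that hold a match, so the presence of matches in those genes is no result. AK4 and STC2 were chosen for their small fold changes alone.

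Either motif was present in 21 of the 24 windows, or 87.5%, against 48.4% of 27305 windows. Those are all RefSeq genes with a promoter window, whether or not the arrays measured them. ACGTG was in 70.8% of the 24 and 21.6% of all, and GCGTG in 62.5% and 36.4%. Windows were matched for 12 of the 18 genes that fell and for 12 of the 14 that did not pass. NDRG1, with the largest decrease, had none, so the shares below leave out more of the genes that fell. The windows of genes that fell and of genes that did not pass held ACGTG in 66.7% and 75% of cases, and GCGTG in 33.3% and 91.7%. For GCGTG the share in genes that fell, 4 of 12 windows, was thus close to that of all windows. None of these differences was tested. The 24 windows were richer in G and C, with a median of 69.7% against 58.3%, and both motifs contain a CG step. Of the 12 windows of genes that fell, 9 held a match, and of the 12 of genes that did not pass, 12 did. The 3 without one were TMEM45A, RORA and ERRFI1, and this says only that these letters are not in those windows. A match is a string of letters, and HIF binding was not measured.

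Of the HIF system itself, a list of 19 genes with 18 measured, 4 fell and 0 rose (limma; 3 higher at an unadjusted p under 0.05). That is 22.2% lower, against 8.95% of all genes, and the list's median log2 fold change was -0.07. EGLN3, a prolyl hydroxylase gene that is itself a HIF target, read 60.9, 55.6 and 68.8 in the shPKCi arrays, against 411.1, 255.9 and 383.6 in the shNT arrays. Its log2 fold change was -2.48 (SE 0.17, adjusted p = 2.32e-05), in the range of the largest decreases above, with shNT replicate 2 the lowest shNT array. HIF1A, the alpha subunit gene best known for acute hypoxia, overlapped between lines at 2465.1, 2368.5 and 2141.5 in the shPKCi arrays, against 2493.1, 1961.8 and 2840.8 in the shNT arrays. Its log2 fold change was -0.05 (SE 0.14, adjusted p = 0.862), with a 95% interval of -0.36 to 0.26. EPAS1, which encodes the alpha subunit HIF-2α, read 437.6, 449.2 and 484.1 in the shPKCi arrays, against 718.0, 848.0 and 767.7 in the shNT arrays, and its log2 fold change was -0.77 (SE 0.10, adjusted p = 0.000867). ARNT, the shared partner of the alpha subunits, was lower at -0.44 (SE 0.12, adjusted p = 0.0251), as was ELOB, a subunit of the VHL ligase, at -0.37 (SE 0.11, adjusted p = 0.0358). For these 3 genes all shPKCi arrays were below all shNT arrays. Other subunit genes of that ligase went the other way: CUL2 had 0.44 (SE 0.16, adjusted p = 0.0895) and ELOC 0.55 (SE 0.20, adjusted p = 0.0898). Neither passed, and in both all shPKCi arrays were above all shNT arrays. CUL2 and ELOC were picked after their values were seen. The log2 fold changes of EGLN1, VHL and HIF1AN, which encode the main prolyl hydroxylase, the ligase's recognition subunit and the asparaginyl hydroxylase, were -0.16 (SE 0.09, adjusted p = 0.263), -0.08 (SE 0.11, adjusted p = 0.697) and -0.08 (SE 0.15, adjusted p = 0.791). EGLN2 was not analysed here. The arrays measure RNA, and protein levels of the HIF subunits, through which oxygen acts, were not measured.

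**Figure D4:**
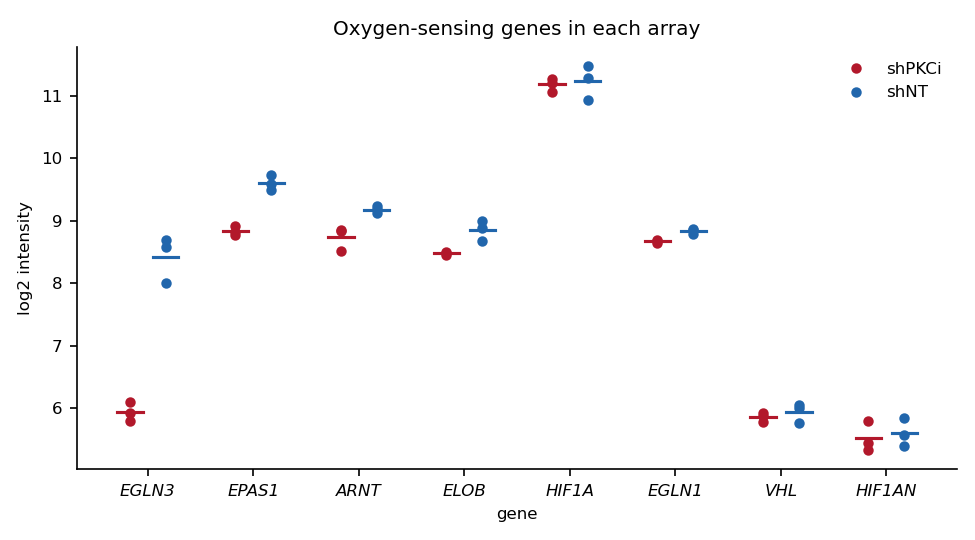
Log2 intensity (y axis) of 8 oxygen-sensing genes (x axis) in each array, shPKCi in red and shNT in blue; points are arrays and bars the mean of 3. EGLN3 and EPAS1 are lower in all shPKCi arrays and HIF1A overlaps; heights of different genes cannot be compared, because probe sets differ in response.

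Other lists of known HIF targets were mostly lower too, where 8.95% of all genes were lower and 9.55% higher. Of 21 measured targets in glucose metabolism, 14 fell, 0 rose (also 0 at an unadjusted p under 0.05) and the median was -0.53. The glucose transporter genes SLC2A3 and SLC2A1 had log2 fold changes of -4.10 and -1.26, and the enolase gene ENO2 and the aldolase gene ALDOC of -1.86 and -1.08. Of 20 measured targets concerned with vessels, matrix, pH and chromatin, 14 fell and 2 rose, with a median of -0.55. The lysyl oxidase gene LOX and the growth factor carrier gene IGFBP3 had log2 fold changes of -3.11 and -2.23. Those of the carbonic anhydrase gene CA12 and the lipase inhibitor gene ANGPTL4 were -1.34 and -1.32. The adjusted p-values of these 8 genes were at most 0.00014. TFRC, the transferrin receptor gene, and EDN1, the endothelin gene, were the 2 that rose, by 1.33 (adjusted p = 9.57e-05) and 0.39 (adjusted p = 0.0226), and like VEGFA they were chosen after their values were seen. VEGFA, a vascular growth factor gene and a standard HIF target, did not pass: its log2 fold change was -0.15 (SE 0.09, adjusted p = 0.294). In glucose metabolism LDHA, ENO1 and PKM did not pass either and overlapped between lines. Their log2 fold changes were -0.15, -0.17 and -0.05 (adjusted p = 0.417, 0.307 and 0.804), and they too were picked after their values were seen.

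**Figure D5:**
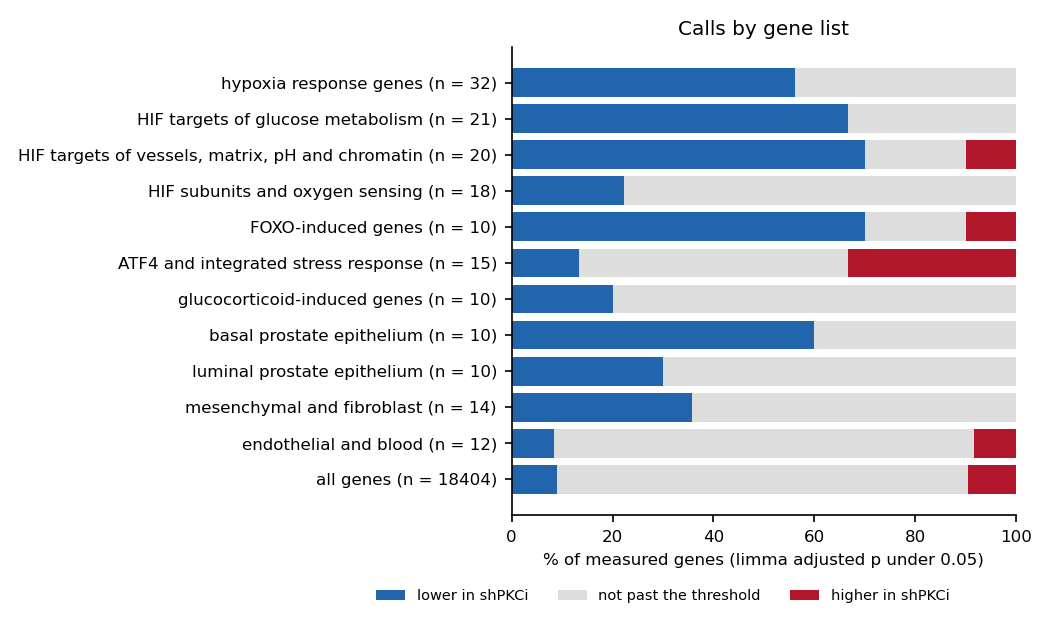
Share of measured genes (x axis, %) that were lower (blue), not past the threshold (grey) or higher (red) in shPKCi against shNT, for the 32 hypoxia response genes, 10 other lists and all genes, with the number measured in brackets. The hypoxia response genes have 18 of 32 lower and none higher; all genes have 8.95% lower and 9.55% higher.

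Some markers of epithelial and mesenchymal cells fell as well. Of 10 measured basal epithelial markers 6 fell and 0 rose (1 higher at an unadjusted p under 0.05), led by the desmosomal cadherin genes DSG3 and DSC3 at -1.42 and -1.02. The log2 of their summed intensity was 13.42 to 13.45 in the shPKCi arrays and 13.73 to 13.88 in the shNT arrays. Of 14 mesenchymal and fibroblast markers 5 fell and 0 rose (also 0 unadjusted), led by the smooth muscle actin gene ACTA2 and the transgelin gene TAGLN at -2.15 and -1.71. Their summed level was 11.45 to 11.51 in shPKCi and 12.09 to 12.20 in shNT. Bright probe sets weigh most in all sums of this paragraph, which are no measure of the amount of a cell type. Here SPARC weighed most, with mean intensities of 1501.9 in shPKCi and 2350.7 in shNT. Signal of these 14 markers ran from percentile 1.8 (LUM) to 98.4 (SPARC). Among the 5 that fell, FAP and SPARC lay at percentiles 85.0 and 98.4, with log2 fold changes of -1.05 and -0.65. No marker is at 0 on this scale. Of 10 luminal markers 3 fell and 0 rose (1 unadjusted), at summed levels of 12.42 to 12.48 in shPKCi and 12.51 to 12.62 in shNT. Endothelial and blood markers gave 1 lower and 1 higher of 12, at 8.84 to 8.88 in shPKCi and 8.93 to 9.03 in shNT. The part of these markers in the lower hypoxia response signal was not tested. In bulk RNA, fewer cells that express a gene and less RNA of it per cell cannot be told apart.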

How the data were processed

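Total RNA of 6 PrEC samples, 3 shPKCi and 3 shNT by their titles, was hybridised to 1 array each. The authors deposited probe set intensities on a linear scale, and RMA is named in the submitters' processing notes; software, version and detection calls are not given in the sources used here, so no gene was marked as below background. Values were transformed to log2 with no pseudocount. Of 32321 probe sets, 19158 had 1 gene symbol and gave 18404 genes, each by its probe set of highest mean. Lines were compared with limma 3.58.1 in R 4.3.3 (lmFit, eBayes, no covariate, Benjamini-Hochberg over all genes, threshold 0.05). The same fit was also run on simulated arrays with known changes. Noise in that run was independent between arrays and no array stood apart, so it does not cover an array such as shNT replicate 2. The 32 genes, the other gene lists and the alternatives were chosen with earlier results of these data known. All 32 genes were named, and from each other list up to 4 genes past the threshold with the smallest adjusted p, besides PRKCI and fixed HIF system genes; exceptions are stated. Alternatives were a replicate block, single arrays left out, median centring, cyclic loess, 2 signal filters, the mean of probe sets, a trended robust variance, array weights and treat at a fold of 1.5. The series calls the samples biological replicates, and 3 arrays a line limit the precision. With 1 line of each kind, the p-values describe spread between samples of 2 lines and not between independent knockdowns. Any other difference between the lines cannot be told apart from an effect of lower PRKCI.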

Additional observations from a re-analysis of the deposited data

How the results depend on the processing

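Of the 18 genes that fell, all but RIOK3 passed in each of 14 alternative fits that tested them, treat apart (RORA was below the median signal filter and was tested in 13), and 7 of the 14 others passed in none. The 32 genes gave 17 to 20 lower and 0 higher when 1 array was left out, with a median of -0.83 to -0.71. Over all genes these fits called 1048 to 1959 lower and 997 to 1935 higher; they hold fewer arrays. The counts moved by over 1.5 times without shPKCi replicate 1 (1057 lower and 1072 higher), 2 (1048 and 997) and 3 (higher alone, 1165), against 1648 and 1758 with all arrays. With genes above the lower quartile of signal the median of the 31 genes tested was -0.83, and above the median signal that of 26 genes was -0.94, since dim genes were left out. Centring each array on its median gave 17 of 32 lower, and over all genes 1321 lower and 2170 higher. Median intensities over the genes were 68.09 to 69.99 in shPKCi and 70.42 to 73.62 in shNT before centring. Centring therefore shifted every fold change upward by the same amount, and the median over all genes went from -0.02 to 0.04. Why the array medians differ was not tested. Cyclic loess gave 22 lower and array weights 24, adding among others GYS1 (limma adjusted p = 0.0423 and 0.0363). Over all genes, cyclic loess called 1858 lower and 1735 higher, and array weights 2336 lower and 2321 higher. Treat at a fold of 1.5 gave 13 of the 32, without BHLHE40, ZNF395, CITED2, WSB1 and RIOK3, and over all genes 180 lower and 88 higher. Equal replicate numbers did not pair the samples: deviations of same-numbered arrays correlated at 0.121, -0.058 and -0.183, and not every array correlated best with its own number. With the replicate block 17 were lower and 0 higher, RIOK3 being lost (limma adjusted p = 0.0835), and the median was -0.77. Over all genes that fit called 1441 lower and 1537 higher. No call on the 32 genes changed direction. Depth is set by signal here: PPFIA4, SPAG4, RORA, FOXO3, MAFF and STC2 lie below the median signal, where differences can be compressed.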

Other observations

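Gene groups driven by other regulators that share targets with HIF are given by their counts; all genes had 8.95% lower and 9.55% higher. Of 10 genes that FOXO factors are known to induce, 7 fell and 1 rose, with a median log2 fold change of -0.65. KLHL24, the repressor gene BCL6 and the sestrin gene SESN1 had -1.42 (SE 0.12, adjusted p = 7.69e-05), -1.30 (SE 0.09, adjusted p = 2.69e-05) and -0.85 (SE 0.10, adjusted p = 0.000441). TXNIP, whose product limits glucose uptake, was the 1 that rose, by 1.55 (adjusted p = 3.08e-05). Its intensities were 318.9, 351.3 and 379.4 in the shPKCi arrays, against 109.4, 134.7 and 114.0 in the shNT arrays, with no overlap.

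Genes induced by ATF4 and the integrated stress response had 5 of 15 higher and 2 lower, with a median of 0.08. The cystine transporter gene SLC7A11 rose by 1.44, the serine synthesis gene PSAT1 by 1.08 and the transsulfuration gene CTH by 1.06, while NUPR1, a stress-response chromatin protein gene, had -2.58; their adjusted p-values were at most 0.000228. Of 10 measured glucocorticoid-induced genes 2 fell and 0 rose (limma; 1 higher at an unadjusted p under 0.05). These were the glutamine synthetase gene GLUL and the transcription factor gene CEBPD, at -0.55 (adjusted p = 0.00929) and -0.41 (adjusted p = 0.0242). The lists hold none of the 32 hypoxia response genes, and differences between lists were not tested.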
